A study of Mus musculus with 42 samples.

Results

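The DNA replication and S phase genes examined here are 45 genes chosen by name. Most encode subunits of the machinery that licenses origins, unwinds DNA, copies both strands and joins the fragments. With them are the E cyclins and 3 genes for enzymes of nucleotide supply. All 45 stand in the expression table of 12988 genes, and all 45 passed the filter on low values (at least 1 CPM, the count scaled to the size of the library, in 2 or more libraries), which kept 12987 genes. Fathers were C57BL/6J males, aged 8 weeks at the start, given vehicle, a low dose (2.5 mg/kg/day) or a high dose (25 mg/kg/day) of DEHP, a plasticizer of the phthalate class, over 67 days, and then mated with females that were not exposed. The RNA libraries come from their wild type offspring, labelled C57BL/6 * DBA/2J and male, at embryonic day 7.5, when gastrulation takes place. The expression table has 2 libraries per group, called vehicle 1 and 2, low 1 and 2, and high 1 and 2 here, while the labels list 4 RNA samples per group from embryonic and extra-embryonic tissue. A second table has DNA methylation from reduced representation bisulfite sequencing (RRBS) in 3 libraries per group. RRBS was run on sperm of males aged 14 weeks as well as on both offspring tissues, and neither table says in its columns which tissue was used, so the methylation may be that of sperm or of offspring. Whether a library holds 1 embryo or a pool, and whether libraries of a group have separate fathers, is not given in the sources used here, so p-values measure only the spread between these libraries, which may be technical.

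DNA replication starts at origins bound by the origin recognition complex. Cdc6 and Cdt1 load a ring of Mcm2 to Mcm7 there in G1, and in S phase Cdc45 and the GINS complex join it to form the active helicase. Transcription of many of these genes is switched on by E2F factors at the passage from G1 to S, and cyclin E with its kinase drives that passage. The mouse epiblast at gastrulation cycles very fast, with short gap phases, so most of its cells are in S phase at any time.

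The letters upstream of the starts show what these promoters carry. RefSeq promoters (build GRCm38.p6) were at hand for 37 of the 45 genes, in 45 windows since some genes have several starts, and the 250 bases before each start were searched on both strands for 4 E2F-type motifs (TTTGGCGC, TTTGCCGC, TTTCCCGC and TTTCGCGC) and for CCAAT. At least 1 E2F-type match was in 9 of the 45 windows (20%), in 9 genes (Mcm5, Mcm6, Mcm7, Orc1, Orc3, Cdc6, Gins3, Rfc3 and Pola1), and in 1.86% of the 32851 promoter windows of all genes. CCAAT was in 24 of the 45 windows (53.3%) and in 33.8% of all windows. A match is a string of letters and not a bound site. The 5 windows chosen are printed 5′ to 3′ on the strand of the gene, with E2F-type matches in capitals. Mcm6 and Mcm5 are shown for their overlapping matches on opposite strands, Cdc45 for the smallest p among the 45 genes, and Prim1 and Rfc5 for the methylation described further on.
Mcm6 (chr1:128359706-128359955, minus strand): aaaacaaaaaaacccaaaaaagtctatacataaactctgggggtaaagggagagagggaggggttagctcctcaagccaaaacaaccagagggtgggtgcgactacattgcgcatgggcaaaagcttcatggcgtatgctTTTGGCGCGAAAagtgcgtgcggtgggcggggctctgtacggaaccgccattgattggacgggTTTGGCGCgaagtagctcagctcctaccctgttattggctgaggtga
Mcm5 (chr8:75109259-75109508, plus strand): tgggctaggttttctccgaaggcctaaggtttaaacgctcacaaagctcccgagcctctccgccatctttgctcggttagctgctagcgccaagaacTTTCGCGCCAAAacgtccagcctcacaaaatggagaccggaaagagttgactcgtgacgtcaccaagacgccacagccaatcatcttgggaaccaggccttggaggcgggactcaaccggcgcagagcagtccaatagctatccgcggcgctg
Cdc45 (chr16:18811973-18812222, minus strand): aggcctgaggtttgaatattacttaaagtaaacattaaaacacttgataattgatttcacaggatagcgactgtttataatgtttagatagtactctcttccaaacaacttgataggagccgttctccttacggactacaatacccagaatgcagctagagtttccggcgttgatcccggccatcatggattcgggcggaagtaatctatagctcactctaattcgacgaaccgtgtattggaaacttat
Prim1 (chr10:128014965-128015214, plus strand): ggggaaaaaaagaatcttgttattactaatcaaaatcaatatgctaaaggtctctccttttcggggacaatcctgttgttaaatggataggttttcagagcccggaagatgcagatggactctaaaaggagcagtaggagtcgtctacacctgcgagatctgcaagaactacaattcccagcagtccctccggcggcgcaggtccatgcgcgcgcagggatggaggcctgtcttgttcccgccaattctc
Rfc5 (chr5:117389024-117389273, minus strand): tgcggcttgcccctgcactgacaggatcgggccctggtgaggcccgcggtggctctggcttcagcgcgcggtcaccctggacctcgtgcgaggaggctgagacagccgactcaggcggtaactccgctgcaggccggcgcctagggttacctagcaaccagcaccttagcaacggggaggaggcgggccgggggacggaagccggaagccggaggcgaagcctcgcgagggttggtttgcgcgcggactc
In the Mcm6 window the match TTTGGCGC, from 110 to 103 bases before the start, overlaps TTTCGCGC on the opposite strand, and another match lies 47 to 40 bases before the start. In the Mcm5 window TTTCGCGC overlaps TTTGGCGC on the opposite strand, together from 153 to 142 bases before the start. The windows of Cdc45, Prim1 and Rfc5 hold none of the 4 motifs.

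The replication genes were expressed at nearly the same level in all 6 libraries, and none of them was called changed. Limma on log2(CPM + 1), with p-values adjusted by Benjamini-Hochberg over all 12987 genes and a gene called at an adjusted p under 0.05, called 0 of the 45 between low and vehicle, 0 between high and vehicle, 0 between high and low, and 0 between both doses together and vehicle. Over all genes it called 0%, 0.0077%, 0% and 0.0077% in these comparisons, so few calls were made anywhere. At an unadjusted p under 0.05 the counts of replication genes were 0 for low against vehicle, 1 for high against vehicle (Cdc45, higher), 0 for high against low and 1 for both doses against vehicle (Cdc45 again). Of all genes, 1.9% were higher and 2.97% lower at that threshold for low against vehicle, 3.65% and 1.64% for high against vehicle, 5.69% and 2.22% for high against low, and 2.72% and 1.43% for both doses against vehicle. The low, high and pooled comparisons with vehicle share the same 2 vehicle libraries.

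The summed level of the 45 genes was 5434 and 5510 CPM in the vehicle libraries, 5497 and 5377 CPM in the low libraries, and 5601 and 5422 CPM in the high libraries. These sums were 0.764 to 0.787% of the CPM of all genes, and the libraries of the 3 groups overlap. The median log2 fold change of the 45 genes was 0.01 for low against vehicle (0.00 over all genes), 0.02 for high against vehicle (0.02 over all genes) and 0.01 for high against low (0.01 over all genes). For high against vehicle 28 of the 45 were positive and 17 negative, and for low against vehicle 25 and 20. Over all 12987 genes these counts were 7612 and 5375, and 6627 and 6360. Counting genes whose libraries did not overlap between groups, for low against vehicle 9 genes lay above and 9 below without overlap (18% and 17.2% of all genes), for high against vehicle 11 and 1 (23.5% and 12.1%), and for high against low 11 and 2 (21.8% and 11.8%). Cdc45, Rpa2 and Fen1 were the 3 of 45 genes with all 4 exposed libraries above both vehicle libraries and 0 of 45 lay below, where 9.1% of all genes lay above and 4.65% below.

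The 95% intervals, which are not adjusted over genes, give the range of change that the spread between these libraries allows. In each comparison the interval of every one of the 45 genes lay within 0.5 on the log2 scale of zero, and the same held for 88.4% of all genes for low against vehicle and for 87.9% for high against vehicle. The intervals of the 45 reached a median of 0.14 to either side of the estimate in these comparisons, from 0.12 to 0.34. Named genes of the 45 and of the other pathway lists below gave 44 log2 fold changes tried with 1 library left out. Of these 44, 33 moved by more than 1.5 times under at least 1 such omission. A p that misses the threshold does not show equal levels, and where an interval reached 0 the difference could not be told from none. The intervals that did not reach 0 were those of Cdc45 for high and for both doses against vehicle.

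**Figure D1:**
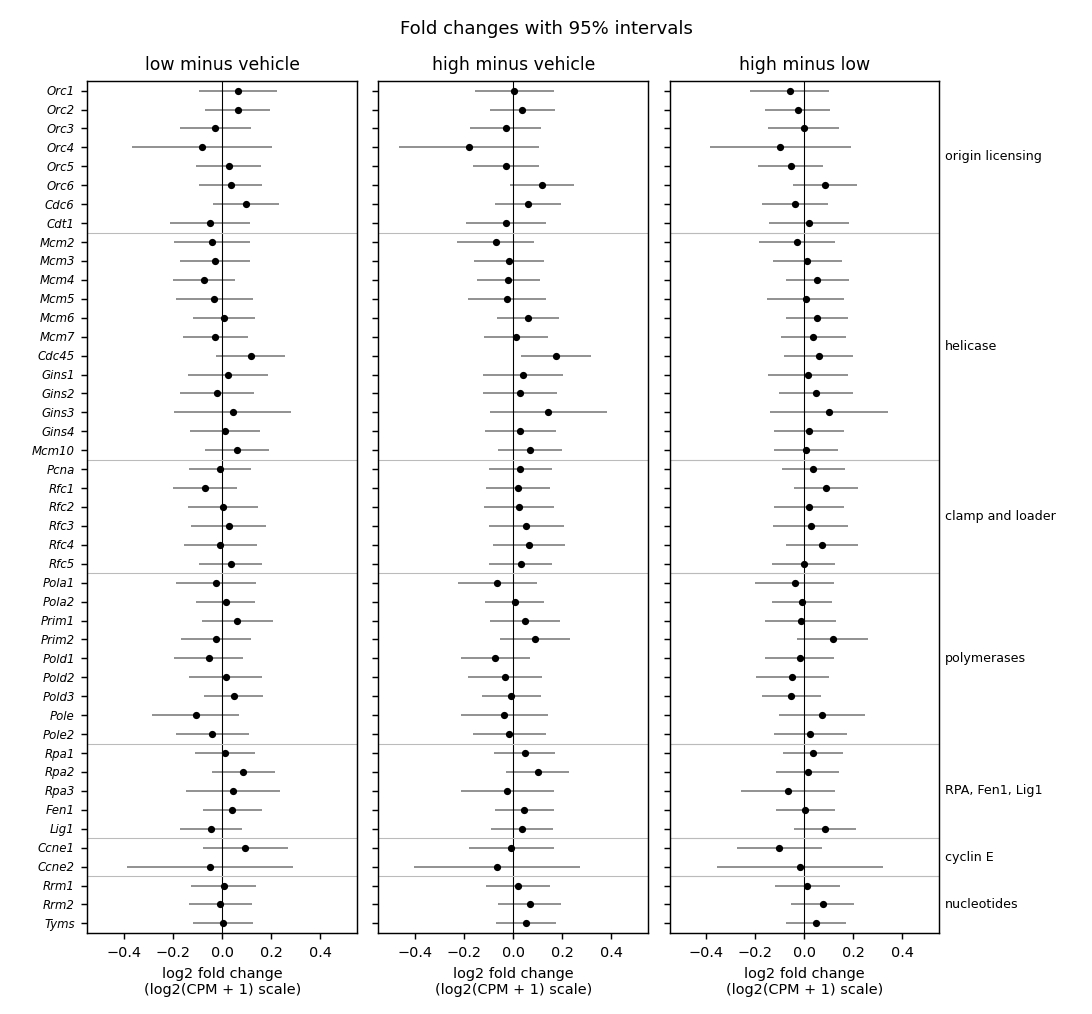
Log2 fold change on the log2(CPM + 1) scale (points) with the 95% interval from limma (lines) for each of the 45 genes, low minus vehicle on the left, high minus vehicle in the middle and high minus low on the right, 2 libraries per group. All points lie between -0.181 and 0.175, and the interval of Cdc45 for high minus vehicle is the one that does not reach 0.

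The spread between libraries was also small. The ratio of the highest to the lowest CPM over all 6 libraries had a median of 1.09 for the 45 genes and of 1.19 for all genes tested. It was below 1.2 in 42 of the 45 (93.3%), against 52.5% of all genes tested and 70.4% of the 8634 genes with a mean of at least 10 CPM. The exceptions were Orc4 (1.39), Ccne2 (1.34) and Gins3 (1.25). The SD within groups on the log2 scale had a median of 0.04 for the 45 genes and of 0.08 for all genes. The 45 genes had a median mean level of 75.8 CPM and all genes one of 20.5 CPM, and the part of level in these differences was not tested.

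**Figure D2:**
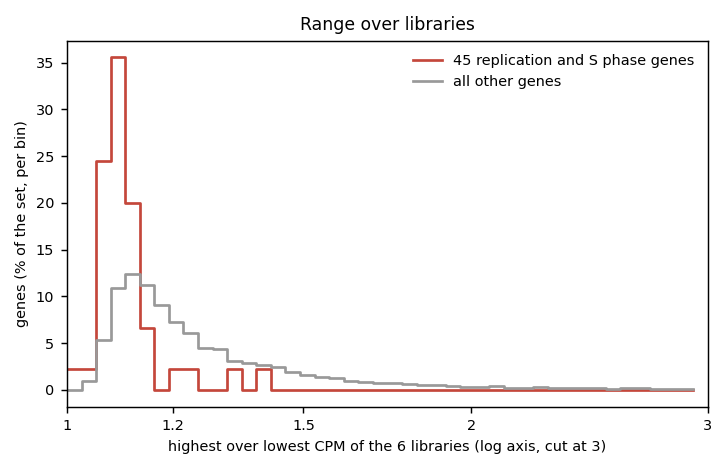
Distribution of the ratio of the highest to the lowest CPM over the 6 libraries, on a log axis cut at 3, for the 45 replication and S phase genes (red) and all other genes in the table (grey), as percent of each set per bin. The red line lies almost wholly below 1.2.

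Among the genes that license origins, Orc1 to Orc6 encode the origin recognition complex. Orc6 was at 60.5 and 62.9 CPM in the vehicle libraries, 64.2 and 62.1 CPM in the low libraries and 66.6 and 67.4 CPM in the high libraries. Both high libraries lay above the other 4, with a log2 fold change of 0.12 for high against vehicle (95% interval -0.01 to 0.25, adjusted p = 0.866 by limma). Orc4 was at 38.9 and 44.3 CPM with vehicle, 39.2 and 39.1 CPM at the low dose and 31.9 and 41.7 CPM at the high dose. Its log2 fold change of -0.18 for high against vehicle (interval -0.47 to 0.11, adjusted p = 0.866) rested on high 1, and without that library it was 0.01. For both doses against vehicle it was -0.13 (interval -0.38 to 0.12, adjusted p = 0.945). The Orc4 span overlaps 2 other annotated genes. Whether their exons overlap was not checked, and the strand setting of the counting is not given. Orc5 had a log2 fold change of -0.06 for high against low (interval -0.19 to 0.08, adjusted p = 0.9998). Orc1, Orc2, Orc3 and Orc5 ranged from 52.7 to 85.5 CPM over all libraries, each by less than 1.13-fold between its extremes. Cdc6, the loader of the Mcm ring, was at 66.5 and 69.3 CPM with vehicle, 72.5 and 73.0 CPM at the low dose and 68.9 and 72.7 CPM at the high dose. Its log2 fold change was 0.10 for low against vehicle (interval -0.04 to 0.23, adjusted p = 0.928) and 0.08 for both doses against vehicle (interval -0.04 to 0.20, adjusted p = 0.945). Cdt1, its partner in loading, was at 94.6 and 83.8 CPM with vehicle, 85.91 and 85.97 CPM at the low dose and 89.4 and 84.9 CPM at the high dose, a range set by vehicle 1.

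The 6 Mcm subunits of the helicase ring ranged over the 6 libraries by 1.06-fold (Mcm7) to 1.13-fold (Mcm5). Mcm2 was at 363 and 369 CPM with vehicle, 363 and 348 CPM at the low dose and 367 and 330 CPM at the high dose, and its log2 fold change for high against vehicle was -0.07 (interval -0.23 to 0.08, adjusted p = 0.888) and 0.01 without high 2. Mcm4 was at 308 and 307 CPM with vehicle, 298 and 286 CPM at the low dose and 310 and 296 CPM at the high dose (log2 fold change -0.07 for low against vehicle, interval -0.20 to 0.05, adjusted p = 0.928). Both low libraries lay below both vehicle libraries for Mcm3, Mcm4, Mcm5 and Mcm7, by log2 fold changes of -0.07 to -0.03, where 17.2% of all genes lay below in that comparison. For Mcm6 both high libraries, at 337 and 331 CPM, lay above both vehicle libraries, at 313 and 329 CPM. Mcm7, whose span also holds the microRNA genes Mir25, Mir93 and Mir106b, ranged from 381 to 405 CPM.

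Cdc45, which joins the Mcm ring to activate it, had the smallest p of the 45 genes. It was at 37.99 and 37.17 CPM in the vehicle libraries, 39.68 and 41.98 CPM in the low libraries and 42.9 and 42.2 CPM in the high libraries. All 4 libraries of exposed fathers lay above both vehicle libraries. The log2 fold change was 0.17 for high against vehicle (1.13-fold, interval 0.03 to 0.32, adjusted p = 0.866), 0.12 for low against vehicle (interval -0.03 to 0.26, adjusted p = 0.928) and 0.15 for both doses together (interval 0.02 to 0.27, adjusted p = 0.945). None of these passed over all genes, and the Cdc45 span overlaps Ufd1 and 1 predicted gene. The 4 GINS subunits, which hold Cdc45 on the ring, had log2 fold changes of 0.03 to 0.14 for high against vehicle. Gins3 spread most, at 15.9 and 18.4 CPM with vehicle, 16.5 and 18.8 CPM at the low dose and 18.2 and 19.8 CPM at the high dose, and its groups overlap. Mcm10, needed to start unwinding, was at 110.5 and 105.5 CPM with vehicle, 115.3 and 110.1 CPM at the low dose and 114.5 and 111.7 CPM at the high dose.

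**Figure D3:**
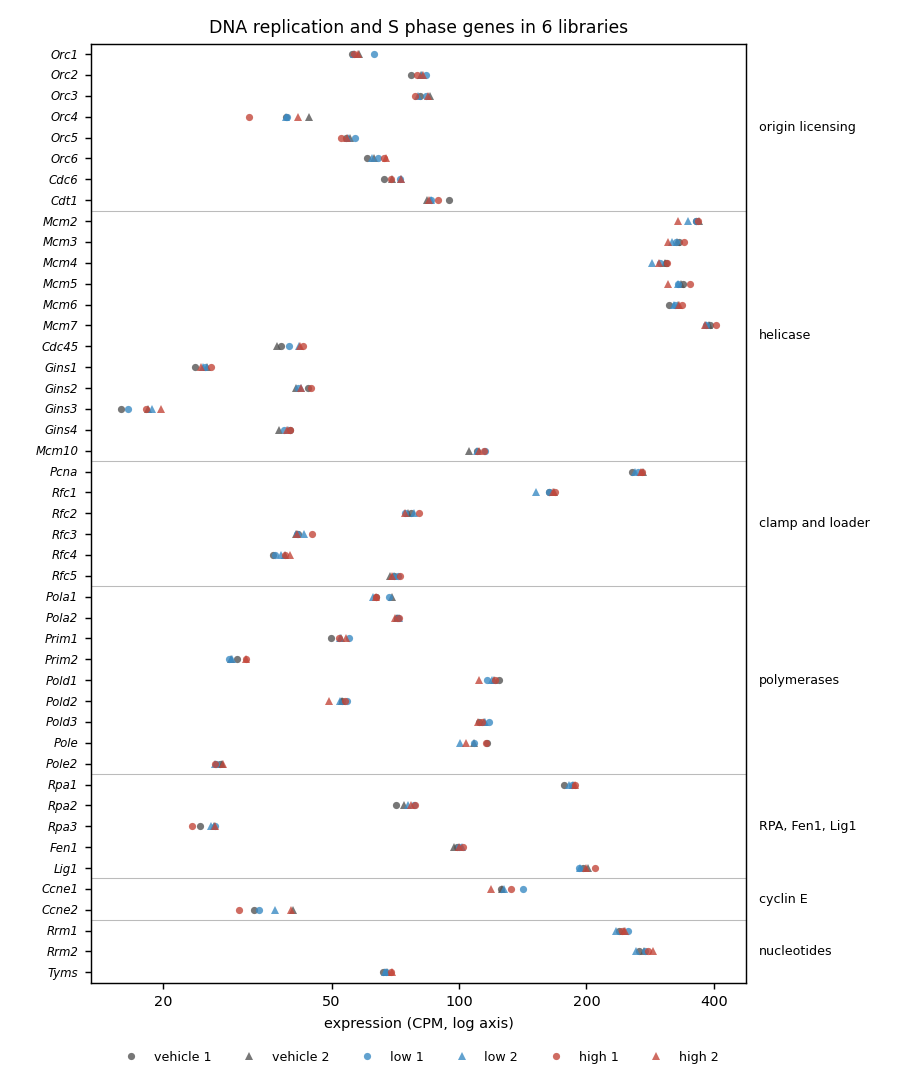
Level of each of the 45 genes in CPM (log axis) in the vehicle (grey), low (blue) and high (red) libraries, circles for library 1 and triangles for library 2 of a group, ordered by role. The 6 points of most genes lie on top of each other, and Orc4, Gins3 and Ccne2 are the most spread. CPM are not divided by gene length, so levels of different genes are not compared.

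The sliding clamp Pcna holds the polymerases on DNA, and the Rfc1 to Rfc5 complex loads it. Pcna was at 256 and 272 CPM with vehicle, 265 and 261 CPM at the low dose and 270 and 269 CPM at the high dose, all within the spread of the vehicle libraries. The large loader subunit Rfc1 was at 164 and 167 CPM with vehicle, 163 and 152 CPM at the low dose and 169 and 167 CPM at the high dose. Its log2 fold change was -0.07 for low against vehicle (interval -0.20 to 0.06, adjusted p = 0.931) and 0.09 for high against low (interval -0.04 to 0.22, adjusted p = 0.89). The 6 genes of clamp and loader had log2 fold changes of 0.02 to 0.07 for high against vehicle.

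The polymerases that start (alpha, with its primase Prim1 and Prim2) and extend (delta and epsilon) the new strands differed little and in both directions. Pole, the catalytic subunit of the leading-strand polymerase, was at 117 and 109 CPM with vehicle, 108 and 100.5 CPM at the low dose and 116 and 104 CPM at the high dose. Its log2 fold change was -0.11 for low against vehicle (interval -0.28 to 0.07, adjusted p = 0.928) and -0.07 for both doses (interval -0.23 to 0.08, adjusted p = 0.945). Pold1, the catalytic subunit of the lagging-strand polymerase, was at 124 and 121 CPM with vehicle, 116 and 119.7 CPM at the low dose and 121.6 and 112 CPM at the high dose (log2 fold change -0.07 for high against vehicle, interval -0.21 to 0.07, adjusted p = 0.874). For both doses its log2 fold change was -0.06 (interval -0.19 to 0.06, adjusted p = 0.945). The primase subunit Prim2 was at 29.9 and 28.9 CPM with vehicle, 28.66 and 29.03 CPM at the low dose and 31.3 and 31.3 CPM at the high dose. Both high libraries lay above the other 4, with a log2 fold change of 0.11 for high against low (interval -0.03 to 0.26, adjusted p = 0.79). Pold3 had a log2 fold change of -0.05 for high against low (interval -0.17 to 0.07, adjusted p = 0.997). Pola2 varied least of the 45 genes, between 70.7 and 72.2 CPM, a 1.021-fold range.

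Rpa1 to Rpa3 coat the single strands, Fen1 trims the fragments of the lagging strand and Lig1 joins them. Rpa2 was at 71.1 and 74.0 CPM with vehicle, 78.3 and 75.9 CPM at the low dose and 78.7 and 76.9 CPM at the high dose, so all 4 libraries of exposed fathers lay above both vehicle libraries. Its log2 fold change was 0.10 for high against vehicle (interval -0.03 to 0.23, adjusted p = 0.866), 0.09 for low against vehicle (interval -0.04 to 0.22, adjusted p = 0.928) and 0.09 for both doses (interval -0.02 to 0.20, adjusted p = 0.945). Fen1 was at 98.9 and 97.3 CPM with vehicle, 99.9 and 101.9 CPM at the low dose and 102.4 and 99.9 CPM at the high dose. Lig1 was at 196 and 202 CPM with vehicle, 192 and 193 CPM at the low dose and 209.7 and 199 CPM at the high dose (log2 fold change 0.08 for high against low, interval -0.04 to 0.21, adjusted p = 0.9).

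The E cyclins drive entry into S phase, and the enzymes of nucleotide supply make the deoxynucleotides. Ccne1 was at 126 and 127 CPM with vehicle, 142 and 128 CPM at the low dose and 132 and 119 CPM at the high dose. Its log2 fold change was -0.10 for high against low (interval -0.28 to 0.07, adjusted p = 0.946). Ccne2 was at 32.7 and 40.6 CPM with vehicle, 33.8 and 36.7 CPM at the low dose and 30.18 and 39.99 CPM at the high dose, so the 2 libraries of each group differed by more than the groups did. Rrm1 and Rrm2, the subunits of ribonucleotide reductase, ranged from 235 to 251 CPM and from 262 to 287 CPM, and for Rrm2 both high libraries lay above the other 4. Tyms, which makes thymidylate, was at 66.0 and 67.5 CPM with vehicle, 67.1 and 66.7 CPM at the low dose and 68.9 and 69.4 CPM at the high dose, with both high libraries above the other 4 by a log2 fold change of 0.05 over vehicle. This pattern, given above for Orc6 and Prim2 too, was also shown by Cdc45, Mcm6, Rfc4 and Rpa1. Its share over all genes was not counted. Both high libraries lay above vehicle in 23.5% of all genes and above low in 21.8%.

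Other genes of the S phase programme, listed by function, gave no call by limma over all genes in any of the 4 comparisons. Of all 12987 genes, 6627 had a positive log2 fold change for low and 7612 for high against vehicle. Of 34 other replication genes, 15 had a positive and 19 a negative log2 fold change for low against vehicle (median 0.00), and 21 and 13 for high against vehicle (median 0.01). Asf1a, a histone chaperone, measured 49.5 and 49.7 CPM in the low libraries, against 42.6 and 45.8 CPM in the vehicle libraries (log2 fold change 0.16, SE 0.06, adjusted p = 0.928). Donson (0.11 for low against vehicle), Asf1b (0.14 for high) and Gmnn (0.10 for high), which encodes the inhibitor of Cdt1, were the others with the smallest p, on the log2 scale. Of 18 genes of nucleotide supply, 15 were positive for low against vehicle (median 0.05) and 11 for high against vehicle (median 0.03). Dut, which removes dUTP, measured 244 and 236 CPM in the low libraries, against 203 and 228 CPM in the vehicle libraries (log2 fold change 0.16, SE 0.07, adjusted p = 0.928), while Atic and Ctps had log2 fold changes of 0.11 for low and 0.08 for high against vehicle. Of 27 measured genes of G1 to S control, 14 were positive for low and 15 for high against vehicle. Cdkn1c, an inhibitor of cyclin kinases, measured 41.1 and 26.5 CPM with vehicle, 50.1 and 41.3 CPM at the low dose and 40.8 and 52.8 CPM at the high dose. Vehicle 2 was the lowest, and the log2 fold change was 0.45 (SE 0.21, adjusted p = 0.928) for low and 0.48 (SE 0.21, adjusted p = 0.866) for high against vehicle. Without vehicle 2 these were 0.14 for low and 0.17 for high. Myc had a log2 fold change of 0.26 for low against vehicle, which was 0.03 without low 1. Ccnd2 had one of -0.25 for low and 0.27 for high against vehicle.

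Of 18 S phase checkpoint genes, 11 were positive for low against vehicle (median 0.03) and 6 for high against vehicle (median -0.02). Brca2 measured 58.6 and 54.7 CPM in the low libraries, against 65.1 and 61.6 CPM in the vehicle libraries (log2 fold change -0.16, SE 0.07, adjusted p = 0.928). Rad1 had a log2 fold change of 0.10 for low, Wee1 one of 0.09 for high and Chek1 one of -0.09 for high against vehicle, and that of Chek1 was -0.0083 without high 1. The mitosis genes, which act after S phase, had 4 of 25 positive for low against vehicle (median -0.03), 19 of 25 for high against vehicle (median 0.03) and 24 of 25 for high against low (median 0.07), with 0 called. In these comparisons 6627, 7612 and 7474 of all 12987 genes were positive. Ccnb1, the mitotic cyclin, measured 255 and 229 CPM with vehicle, 208 and 206 CPM at the low dose and 221 and 212 CPM at the high dose. All 4 libraries of exposed fathers lay below both vehicle libraries, with a log2 fold change of -0.22 (SE 0.06, adjusted p = 0.928) for low and -0.16 (SE 0.06, adjusted p = 0.866) for high against vehicle. Kif23 had a log2 fold change of -0.15 for low and Ndc80 one of 0.18 for high against vehicle.

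Limma called 0 genes of the 6 cell type marker lists in any comparison. At an unadjusted p under 0.05 more passed, given here for low against vehicle, high against vehicle and high against low in turn. They were 0, 1 and 6 of 9 epiblast markers, of which 0 were higher. Of 10 streak markers they were 2, 4 and 7 (2, 0 and 1 higher). Of 20 endoderm markers they were 5, 7 and 2 (4, 6 and 2 higher). Of 12 trophoblast markers they were 0, 4 and 5 (0, 3 and 4 higher). Eomes is on both the streak and the trophoblast list. It was the lower trophoblast marker for high against vehicle and for high against low. The 8 measured markers of extraembryonic mesoderm and blood gave 0, 2 and 3 (0, 2 and 2 higher). For the 6 measured decidua markers they were 1, 2 and 2, all higher. Hand2 is on both of these lists. Of all genes, 1.9%, 3.65% and 5.69% were higher and 2.97%, 1.64% and 2.22% lower. The summed level of 9 epiblast markers was 2059 and 2444 CPM with vehicle, 2700 and 2117 CPM at the low dose and 1939 and 1680 CPM at the high dose, and that of 10 primitive streak and mesoderm markers 733 and 789, 904 and 758, and 659 and 557 CPM. Dnmt3b and Pou5f1 led the epiblast list, and T and Eomes the streak list. The 20 markers of visceral and parietal endoderm, led by Apob and Apoe, summed to 4903 and 2300 CPM with vehicle, 3121 and 3613 CPM at the low dose and 3762 and 4398 CPM at the high dose. The 12 measured of 16 trophoblast markers, led by Krt8 and Krt18, summed to between 629 and 719 CPM. Elf5, Prl2c2, Tpbpa and Esx1 were not among the genes measured. That sum rests largely on Krt8, Krt18 and Eomes, and Eomes is also in the streak sum. Within it Prl3d1 ran from 0.364 CPM in high 1 to 28.4 CPM in low 1. The 8 measured of 11 markers of extraembryonic mesoderm and blood, led by Kdr and Foxf1, summed to between 64.6 and 116 CPM, and the 6 measured of 11 decidua markers, led by Bmp2 and Hand2, to between 31.5 and 40.6 CPM. Both epiblast and endoderm genes were thus present in all libraries. The summed level of the replication genes ranged 1.04-fold over the same libraries. The part of cell makeup in the single values above was not tested, and in such bulk samples fewer cells of a type and less RNA per cell cannot be told apart. The CPM values of a library are whole multiples of 1 step, and a smaller step goes with a deeper library. The step was 0.00650 and 0.00611 CPM in the high libraries and 0.00515 to 0.00538 CPM in the other 4, and the part of depth was not tested.

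Methylation was low at the starts of the replication genes in all 9 RRBS libraries. Tiles of 100 bp within 500 bp of a RefSeq start were measured for 34 of the 37 genes with a listed promoter (136 tiles), and not for Orc5, Pcna and Tyms. Their mean was 4.79, 4.70 and 4.56% in the vehicle libraries, 4.39, 4.66 and 4.64% in the low libraries and 4.12, 4.33 and 4.60% in the high libraries. The mean over the 43819 tiles at all listed starts was 8.65%, and that over all 141251 tiles was 35.9%. The low libraries overlap the vehicle libraries, and so do the high libraries, with group means of 4.68% for vehicle, 4.56% for low and 4.35% for high (n = 3 each). Limma on percent methylation, adjusted over all tiles, called 0 of the 136 tiles and 0% of all tiles in each comparison. At an unadjusted p under 0.05 it gave 4 of the 136 tiles for low and 3 for high against vehicle, where 5.49% and 4.44% of all tiles passed, 3 for high against low (4.71% of all tiles) and 5 for both doses against vehicle (5.09% of all tiles). The table gives no coverage, and how precise 1 tile is cannot be said.

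Single promoters stood apart in places, and those named here were chosen after their values were seen. Prim1, the catalytic primase subunit, averaged 11.9, 11.2 and 13.4% with vehicle, 17.3, 20.8 and 19.1% at the low dose and 11.5, 11.2 and 15.3% at the high dose. The low libraries did not overlap either other group. Of its 3 tiles the one that differed most, at chr10:128014801-128014900 and upstream of the printed window, was at 6.67, 8.33 and 11.1% with vehicle, 22.6, 33.3 and 30% at the low dose and 12.7, 15 and 18.8% at the high dose (19.9 percentage points for low against vehicle, adjusted p = 0.52 by limma). The other tiles differed by 2.88 and -2.17 points for low against vehicle, so the promoter value rests on 1 tile. Prim1 RNA measured 49.9 and 52.7 CPM with vehicle, 55 and 52.2 CPM at the low dose and 52.1 and 54.0 CPM at the high dose, and all groups overlap. Rfc5, a subunit of the clamp loader, averaged 4.48, 7.01 and 5.65% with vehicle, 1.18, 4.14 and 1.64% at the low dose and 2.52, 1.62 and 0.619% at the high dose, so that all 6 libraries of the dosed groups lay below the vehicle libraries. Its tile at chr5:117388901-117389000, just inside the transcribed side of the start, was at 13.01, 5.17 and 16.96% with vehicle, 2.93, 3.43 and 4.92% at the low dose and 4.40, 4.23 and 0.325% at the high dose (adjusted p = 0.893 by limma for both doses against vehicle). That tile differed by -8.34 points for both doses against vehicle, and the other tiles by -2.36 and -0.585 points. In those other tiles the groups overlap. The one at chr5:117388801-117388900 was at 0, 11.8 and 0% with vehicle, so the second vehicle mean rests largely on it. Rfc5 RNA measured 70.1 and 68.7 CPM with vehicle, 71.9 and 70.3 CPM at the low dose and 72.5 and 69.4 CPM at the high dose. The 2 tables may hold different tissues. Of the 34 promoters, 3 were higher and 2 lower without overlap for low against vehicle (4.01% and 5.41% of the promoters of all genes), and 1 higher and 3 lower for high against vehicle (4.64% and 4.8%). For high against low 0 were higher and 4 lower (5.19% and 4.62%). For both doses against vehicle 1 was higher (Rfc1) and 2 were lower (Rfc5 and Pole2), where 0.992% and 1.16% of all promoters were.

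**Figure D4:**
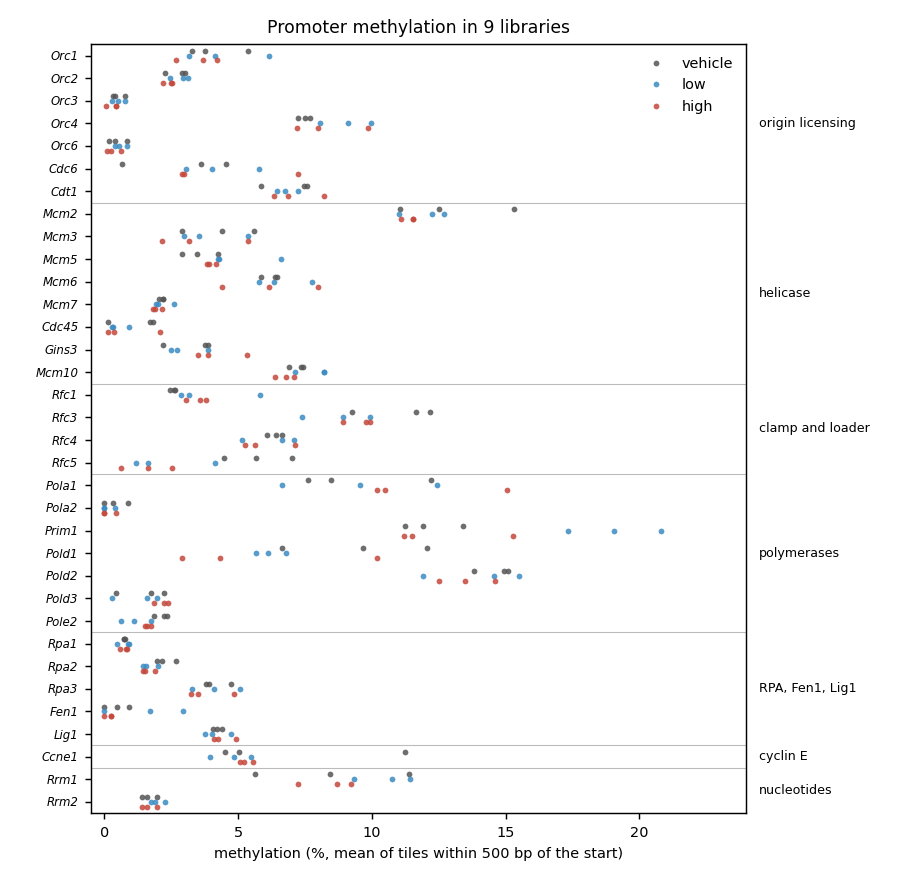
Mean methylation in percent of the 100 bp tiles within 500 bp of the starts of 34 replication genes, one point per library, vehicle (grey), low (blue) and high (red), 3 libraries per group, ordered by role. Most points lie below 10%, and the low libraries of Prim1, at 17.3 to 20.8%, stand to the right of its other libraries.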

How the data were processed

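The tables hold RNA in 6 and methylation in 9 libraries. Expression values are CPM deposited by the authors, per the file headers. Methylation values are percent per 100 bp tile, deposited by the authors without coverage. Per the submitters' processing notes, which assign no roles, the tools were edgeR, SAMtools, TopHat, Bowtie 0.12.2, methylKit, Bismark, Bowtie2 and Trim Galore, with the builds mm8 and mm10. Lines that name no gene hold 27.9 to 29.8% of the deposited CPM and were left out.

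Differences were tested on log2(CPM + 1), which understates changes of low genes, by limma (version 3.58.1, R 4.3.3). The fit used a trend of variance on mean and all 3 groups, with 3 residual degrees of freedom, after a filter of at least 1 CPM in 2 libraries. Percent methylation per tile was tested by limma as well. Both scripts were tested on simulated data. Of 12728 genes compared with GRCm38.p6, 98.3% had an end within 1000 bp of the RefSeq one. Tiles numbered 43819 near RefSeq starts and 2519 to 3295 near shifted starts, so they were read as GRCm38.

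The genes and lists were chosen with earlier results of these data known. The log2 fold change, its 95% interval (SE 0.05 to 0.12) and the adjusted p are given for the 3 genes with the smallest p per direction and comparison. Other pathway genes are per list the 2 with the lowest p in each of low and high against vehicle, and markers the 2 of each list with the highest mean. Of the 45 genes, 19 overlap another RefSeq gene span, and the strand setting of the authors' counting is not given in the sources used here.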

Additional observations from a re-analysis of the deposited data

How the results depend on the processing

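No replication gene was called in any of the 59 fits with another pseudocount, filter, scaling, spread model, set of groups or a replicate block, or with a library left out, at 14 or 15 per comparison. The count over all genes, 0 for low against vehicle, was 0 to 65 with a library left out (65 without low 2). For high against vehicle it was 1, 2 with those groups alone, 0 without a trend or with the replicate block, and 0 to 2 with a library left out. For high against low it was 0, 1 among genes of at least 10 CPM, 9 with those groups alone, and 0 to 291 with a library left out (291 without low 2). For both doses it was 1, 0 with a pseudocount of 0.1, after quantile normalization or rescaling, without a trend or with the block, and 0 to 7 with a library left out.

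With a library left out, the median log2 fold change of the 45 genes ran from -0.012 to 0.0206 for low against vehicle, 0.0095 to 0.0434 for high against vehicle, -0.00057 to 0.0394 for high against low and -0.0043 to 0.0306 for both doses. It moved by more than the spread between libraries (0.016) without vehicle 1, vehicle 2 or high 2. Of the 44 log2 fold changes of named genes, from the 45 and the other pathway lists, 33 moved by over 1.5 times with some library left out. Of 654 values of single genes, 2 changed sign, and neither was called. Many of the 654 could not change, so their number is no measure of stability. Another filter, no trend, the compared groups alone and the replicate block leave a fold change as it is. So does leaving out a library of a group outside the comparison. Orc4 for high against vehicle ran from -0.37 without high 2 to 0.0067 without high 1, and Mcm2 from -0.15 without high 1 to 0.0051 without high 2. The causes were not tested. No label says that the column numbers pair libraries. Deviations of same-numbered libraries correlated over all genes at 0.0035 (low and vehicle), -0.07 (high and vehicle) and 0.09 (high and low), and over the 45 genes at 0.16, 0.74 and 0.23, so a shared source of same-numbered libraries cannot be told from these data. The column number as a replicate block left all medians as they were (0.01 for low and 0.02 for high against vehicle). This had to be so, since each group has 1 library of each number, and it says nothing on a shared source. The planned edgeR and DESeq2 fits were not run, since the deposited CPM were not treated as read counts.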

Other observations

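Mcm5, Pole, Mcm2, Ccne1 and Mcm3 had log2 differences of -0.17 to -0.12 (high 2 minus high 1), and Ccne2, Orc4, Rpa3 and Gins3 of 0.39, 0.38, 0.17 and 0.11. In the vehicle group Ccne2, Gins3 and Orc4 were also higher in library 2 than in library 1, by 0.30, 0.20 and 0.18, and Cdt1 had a log2 difference of -0.17. In the low group Gins3 and Ccne2 were higher in low 2 than in low 1 by 0.18 and 0.12, and Orc1 had a log2 difference of -0.16. These genes were picked after their values were seen, and the libraries of a group have no order.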
